A study of Rattus norvegicus with 16 samples.

Results

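This account compares rat supraspinatus muscle 10 days after a tendon tear with neurectomy against unoperated muscle, across all genes of the expression table. The comparison rests on 8 of the 16 libraries of the study, 4 at 10 days and 4 at 0 days, chosen by the time given in each label. All rats were of the Sprague Dawley strain, and age was not given in the labels. At 10 days both shoulders had a full-thickness tear of the supraspinatus together with a suprascapular neurectomy, which takes away the nerve of that muscle. The 0-day muscles were unoperated controls. No group had a tear alone, a neurectomy alone or a sham operation, so tear, loss of the nerve and surgery cannot be told apart. The other 8 libraries, from 30 and 60 days after the same operations, are used at the end to show what sets 10 days apart. Whether any 2 libraries share a rat is not given in the labels, so p-values measure the spread between these libraries only.

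The supraspinatus is a muscle of the rotator cuff that is moved by the suprascapular nerve. In an innervated fibre the acetylcholine receptor is made mainly by the nuclei beneath the synapse, and electrical activity keeps its genes silent along the rest of the fibre. When the nerve is lost, the histone deacetylase HDAC4 and the myogenic factor myogenin take part in switching on receptor genes and ubiquitin ligases along the whole fibre, and the fibre loses protein. A torn tendon also removes the load on the muscle, and injury brings macrophages and matrix-producing cells.

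Libraries held 22.96 to 35.7 M fragments (M, mega) at 0 days and 24.6 to 28.7 M at 10 days, and these totals overlapped (two-sided exact permutation p = 0.514). A level of 3 counts, taken as the smallest the depth can show, was 0.0840 to 0.131 counts per 1 M fragments (CPM) over the 8 libraries. The 10 most abundant genes of each library took 23.7% to 25.1% of fragments at 0 days and 12.6% to 14.7% at 10 days. The factors from the trimmed mean of M-values (TMM), which offset such differences in composition, were 0.750 to 0.775 at 0 days and 1.18 to 1.24 at 10 days. Levels below are TMM-scaled CPM, and differences are log2, 10 days minus 0 days, relative to the bulk of the genes. Scaling by library totals alone raised the median difference of all genes by 0.66, and directions that turn with it are given beside the gene. In bulk tissue, fewer cells of a type and less RNA per cell cannot be told apart.

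Of 11658 genes tested with edgeR, 7304 were called at an adjusted p under 0.05, which is 62.7% of all. Called higher at 10 days were 33.3% of genes and called lower 29.4%, with library totals 87.4% of the called genes being higher in place of 53.1%. For 59.0% of genes the 4 libraries at 10 days lay apart from the 4 controls without overlap. The rises reached further than the falls. At least 16-fold differences were estimated for 112 genes called higher and 25 called lower, and at least 32-fold for 67 and 9. A count of members called is read below against 33.3% higher and 29.4% lower, and a list's median against 0.06 for all genes.

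Genes of skeletal muscle fibres took a large share of the control libraries, which does not tell the supraspinatus from other muscles. The 17 genes of fast fibres took 20.04% to 21.05% of all fragments at 0 days. Of these genes 16 were tested, and 1 was listed at 0 in all 16 libraries. A set of 23 macrophage genes took 0.00872% to 0.0124%, and without gene lengths such shares do not compare levels between genes.

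The subunits of the muscle acetylcholine receptor rose together, 5 of 5, with a median log2 difference of 4.80. Chrna1, Chrnb1, Chrnd and Chrng encode the fetal receptor, and Chrne replaces Chrng in the adult one. Their RefSeq promoters (assembly GRCr8, 250 bases before the start, 5′ to 3′ on the strand of the gene) are shown because E-boxes, the sites that myogenic factors such as myogenin bind, have been studied in these promoters. Capitals mark every CANNTG, which reads the same on both strands.
Chrna1, chr3:78877354-78877603, minus strand: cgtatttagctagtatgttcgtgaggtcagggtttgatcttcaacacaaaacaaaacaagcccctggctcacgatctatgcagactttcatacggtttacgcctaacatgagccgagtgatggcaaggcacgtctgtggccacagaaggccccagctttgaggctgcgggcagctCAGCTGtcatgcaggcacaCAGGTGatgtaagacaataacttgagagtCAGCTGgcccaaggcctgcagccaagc
Chrnb1, chr10:55015108-55015357, minus strand: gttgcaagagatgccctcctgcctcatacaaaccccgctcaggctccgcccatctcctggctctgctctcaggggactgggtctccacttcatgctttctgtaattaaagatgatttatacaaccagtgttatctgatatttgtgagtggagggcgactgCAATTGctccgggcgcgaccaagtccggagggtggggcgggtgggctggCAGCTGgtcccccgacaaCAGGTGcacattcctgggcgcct
Chrnd, chr9:95310066-95310315, plus strand: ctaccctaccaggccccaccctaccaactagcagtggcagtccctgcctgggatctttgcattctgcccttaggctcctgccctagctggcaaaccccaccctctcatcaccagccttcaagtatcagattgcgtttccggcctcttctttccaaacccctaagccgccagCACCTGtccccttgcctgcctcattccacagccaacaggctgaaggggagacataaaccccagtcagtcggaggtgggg
Chrng, chr9:95325734-95325983, plus strand: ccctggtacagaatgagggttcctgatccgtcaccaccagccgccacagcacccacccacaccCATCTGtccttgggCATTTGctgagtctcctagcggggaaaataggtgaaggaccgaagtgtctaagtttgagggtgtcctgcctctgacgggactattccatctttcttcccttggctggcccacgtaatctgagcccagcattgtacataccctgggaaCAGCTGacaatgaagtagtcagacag
Chrne, chr10:55834155-55834404, minus strand: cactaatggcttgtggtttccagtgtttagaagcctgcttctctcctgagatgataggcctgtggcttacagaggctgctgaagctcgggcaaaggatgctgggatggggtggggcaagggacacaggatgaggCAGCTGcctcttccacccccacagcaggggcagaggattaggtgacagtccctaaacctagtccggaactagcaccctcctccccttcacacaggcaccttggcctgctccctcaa
Chrna1, Chrnb1 and Chrng held 3 E-boxes each, and Chrnd and Chrne held 1 each. Of 33469 RefSeq promoter windows of this length, 65.5% held at least 1 E-box and 11.5% at least 3. CAGCTG, or CACCTG and its reverse complement CAGGTG, stood in all 5 windows and in 25.8% of all windows. These matches describe the letters of the windows only.

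Chrna1, the alpha subunit that binds acetylcholine, stood at 19.7, 20.8, 19.01 and 13.9 CPM in the control libraries and at 979.8, 1461, 1106 and 1177 CPM at 10 days. Every 10-day library was far above every control, and replicate 2 of 10 days was the highest (log2 6.01 ± 0.39 SE, adjusted p 4.61e-09). Chrnd, the delta subunit, went from 26.5, 33.7, 22.9 and 21.9 CPM to 628, 889, 699 and 707 CPM, again highest in replicate 2 (log2 4.80 ± 0.29 SE, adjusted p 2.5e-09). The fetal gamma subunit Chrng was near 1 CPM in each control, at 0.956, 0.917, 0.892 and 0.958 CPM. In the 10-day libraries it stood at 98.02, 149.8, 132 and 135 CPM, the largest rise of the 5 (log2 7.11 ± 0.59 SE, adjusted p 4.99e-08). Chrnb1, the beta subunit, rose from 80.7, 87.1, 72.01 and 72.5 CPM to 215, 294, 239 and 225 CPM (log2 1.64 ± 0.17 SE, adjusted p 3.91e-07). The adult epsilon subunit Chrne also rose, but least, from 20.97, 22.3, 26.4 and 17.4 CPM to 42.8, 72.6, 50.6 and 57.97 CPM (log2 1.36 ± 0.23 SE, adjusted p 0.000108). For all 5 subunits the groups did not overlap. Together they took 0.0115%, 0.0126%, 0.0106% and 0.00969% of fragments in the 4 controls and 0.236%, 0.338%, 0.275% and 0.277% at 10 days (two-sided exact permutation p = 0.0286, the smallest that 4 against 4 libraries allow, adjusted p 0.0321 over 46 tests of shares and library measures). Of the 42 lists of this report, 38 reached that smallest p for their share.

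Genes that build the synapse moved in both directions: 6 of 16 rose, 4 fell and 6 were not called. Ncam1, a cell adhesion molecule that spreads over denervated fibres, stood at 8.27, 10.9, 12.4 and 9.15 CPM in the controls and 300.3, 367, 318 and 240.3 CPM at 10 days (log2 4.91 ± 0.29 SE, adjusted p 2.12e-09). Musk, the kinase that gathers receptors beneath the nerve, rose from 3.15, 1.36, 1.87 and 1.68 CPM to 16.3, 19.8, 14.7 and 22.04 CPM (log2 3.20 ± 0.24 SE, adjusted p 1.35e-08). Erbb2, a partner subunit in the receptors for nerve-derived neuregulin, rose from between 2.25 and 3.301 CPM to between 28.8 and 38.3 CPM (log2 3.59 ± 0.26 SE, adjusted p 1.27e-08). Falling the furthest was Ache, the esterase that clears acetylcholine, from 109, 111, 104 and 93.98 CPM to 15.5, 7.23, 7.48 and 6.301 CPM (log2 -3.52 ± 0.26 SE, adjusted p 1.66e-08). Its groups did not overlap, and replicate 1 of 10 days stood above the other 3. The other falls were in Etv4, a transcription factor, Dok7, an activator of Musk, and Lamb2, a laminin of the synaptic basement membrane (-1.03, -0.98 and -0.76), and these 3 calls were lost with library totals (-0.37, -0.32 and -0.10). The list's median was -0.05, and with library totals it turned to 0.61, with 11 called higher and 1 lower.

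**Figure D1:**
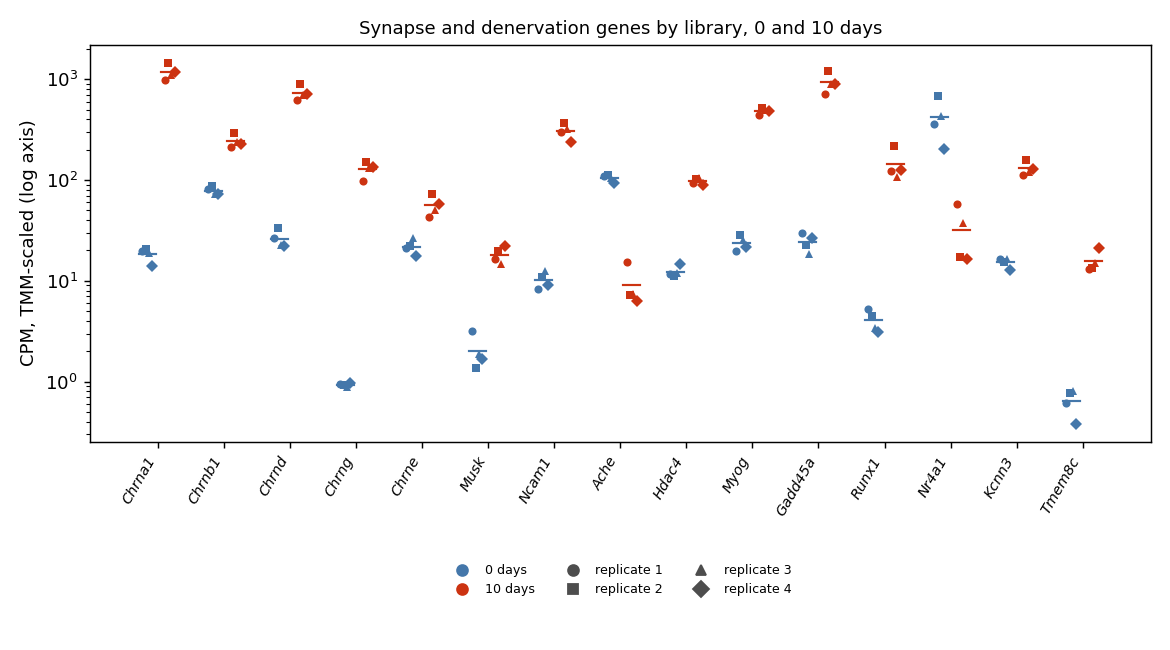
TMM-scaled CPM (log axis) of 15 synapse and denervation genes in each library, blue at 0 days and red at 10 days, with shapes for replicates and bars for group means. The receptor subunits, Ncam1, Myog, Gadd45a, Runx1 and Tmem8c stand higher in every 10-day library, and Ache and Nr4a1 stand lower.

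Of 15 genes of the signalling that follows denervation, 8 rose, 6 fell and 1 was not called (9 and 4 with library totals). Myog, the gene of myogenin, stood at 19.6, 28.3, 25.5 and 21.6 CPM in the controls and 444, 518, 496 and 481 CPM at 10 days, with little spread in either group (log2 4.35 ± 0.16 SE, adjusted p 1.83e-11). Hdac4, which lies upstream of it, rose from 11.8, 11.04, 11.9 and 14.6 CPM to 93.6, 101, 105 and 89.9 CPM (log2 2.98 ± 0.20 SE, adjusted p 5.11e-09). Gadd45a, a stress protein linked to changes of the fibre's nuclei, rose from 29.97, 22.4, 18.4 and 26.4 CPM to 711, 1219, 895 and 901 CPM (log2 5.26 ± 0.26 SE, adjusted p 3.25e-10). Runx1, a transcription factor that limits wasting of denervated fibres, rose from 5.23, 4.44, 3.39 and 3.11 CPM to 123, 217, 108 and 125 CPM (log2 5.15 ± 0.43 SE, adjusted p 5.32e-08). Replicate 2 again held the highest 10-day value of both. Cdkn1a, an inhibitor of the cell cycle, went from 58.4, 54.7, 42.7 and 31.9 CPM to 1636, 1921, 1412 and 1809 CPM (log2 5.18 ± 0.31 SE, adjusted p 2.36e-09). Opposite in direction was Nr4a1, an orphan nuclear receptor induced by muscle activity, at 361, 689.5, 427 and 202 CPM in the controls and 57.8, 17.2, 37.5 and 16.6 CPM at 10 days (log2 -3.70 ± 0.58 SE, adjusted p 5.68e-05). Its control libraries differed among themselves by more than 3-fold.

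Kcnn3, the SK3 potassium channel of denervated fibres, rose from 16.5, 15.3, 16.3 and 12.8 CPM to 113, 159.8, 119 and 130.2 CPM (log2 3.10 ± 0.16 SE, adjusted p 5.19e-10). Of the 16 channel and pump genes 3 rose and 11 fell, against 4 and 8 with library totals. The deepest fall among genes with a mean of at least 5 CPM and no overlap between groups was that of Aqp4, the water channel of fast fibres. It went from 285, 308, 237 and 328 CPM to 7.43, 2.46, 2.24 and 2.92 CPM (log2 -6.25 ± 0.45 SE, adjusted p 1.18e-08). Replicate 1 stood above the other 3 at 10 days, as in Ache.

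Of 19 myogenic factors and satellite cell genes 7 rose and 6 fell, near the share of all genes (11 and 1 with library totals). Myod1, a factor of committed myoblasts, rose from 71.1, 44.1, 61.7 and 62.5 CPM to 219, 198, 235 and 148 CPM (log2 1.74 ± 0.29 SE, adjusted p 7e-05). Tmem8c, an older symbol of the fusion protein myomaker, stood at 0.619, 0.7703, 0.803 and 0.383 CPM in the controls and 13.2, 13.5, 14.9 and 21.4 CPM at 10 days (log2 4.58 ± 0.44 SE, adjusted p 2.94e-07). Myh3, the embryonic myosin, rose from 163, 107, 71.2 and 141 CPM to 650.1, 262, 349 and 431 CPM (log2 1.81 ± 0.35 SE, adjusted p 0.000280). Cdh15, a cadherin of satellite cells, fell from 25.4, 35.9, 36.2 and 31.5 CPM to 16.4, 12.8, 18.8 and 13.6 CPM (log2 -1.07 ± 0.14 SE, adjusted p 6.48e-06). Pax7, the marker of resting satellite cells, was near 1 CPM in every library and not called (-0.17, adjusted p 0.701, and 0.49 with library totals).

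The genes of the contractile apparatus fell. All 16 fast fibre genes tested were called lower (15 with library totals), with a median of -1.86, and their share of fragments went from 20.04%, 20.7%, 20.97% and 21.05% to 8.91%, 8.61%, 9.296% and 8.77%. Mybpc2, the fast myosin-binding protein C, fell the furthest, from 7381, 8366, 7574 and 7416 CPM to 355, 269, 513 and 336 CPM (log2 -4.38 ± 0.26 SE, adjusted p 1.14e-09). Actn3, an actinin of fast fibres, went from 17519.9, 17898, 16748 and 18079 CPM to 1662, 1733, 2751 and 1602 CPM (log2 -3.18 ± 0.20 SE, adjusted p 2.05e-09). Its 10-day replicate 3 stood above the others, and the groups did not overlap. Pvalb, the calcium buffer parvalbumin, was the least reduced, from between 6377 and 8192 CPM to between 4564 and 6230.3 CPM (log2 -0.48 ± 0.13 SE, adjusted p 0.00366), and with library totals its direction turned to 0.18, not called (adjusted p 0.193).

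Slow fibre genes fell as well, 11 of 13 (9, and 1 higher, with library totals) with a median of -1.47. Myl3, the slow myosin light chain, had 1637, 1848, 1448 and 1669 CPM in the controls and 196, 88.1, 45.1 and 107 CPM at 10 days (log2 -3.92 ± 0.37 SE, adjusted p 1.88e-07). Tnni1, slow troponin I, fell from 674, 964, 526 and 701 CPM to 376, 307, 244 and 299 CPM (log2 -1.23 ± 0.24 SE, adjusted p 0.000389). Among 8 myosin heavy chains, Myh3 was the 1 gene called higher and 6 were called lower (4 with library totals). Fast Myh1 fell from 21555, 28705, 39605 and 24309 CPM to 4924, 3592, 3074 and 3356 CPM (log2 -2.93 ± 0.20 SE, adjusted p 3.6e-09). Myh4, the fastest isoform, went from 43528, 49361, 35720.1 and 55111 CPM to 10589, 12065, 15743 and 12091 CPM (log2 -1.86 ± 0.22 SE, adjusted p 1.68e-06), and slow Myh7 from between 2552 and 4682 CPM to between 558 and 1343 CPM (log2 -1.84 ± 0.30 SE, adjusted p 6.82e-05). Fast and slow genes alike stood lower at 10 days, with no overlap between groups for the genes named here.

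Calcium handling followed the contractile genes, with 12 of 16 lower (9, and 4 higher, with library totals) and a median of -1.01. Jph2, which ties the surface membrane to the calcium store, fell from 596, 613, 578 and 566 CPM to 62.9, 59.7, 48.1 and 41.98 CPM (log2 -3.47 ± 0.32 SE, adjusted p 1.71e-07). Against this, Sln, the calcium pump inhibitor sarcolipin, rose from 9.84, 7.63, 9.55 and 7.38 CPM to 681, 506, 421 and 563 CPM (log2 5.98 ± 0.18 SE, adjusted p 1.21e-12). The other 2 genes called higher were Cacnb1, a calcium channel subunit (1.37), and Fkbp1a, a protein bound to the calcium release channel (0.46).

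Among sarcomere-associated proteins 2 members of 1 family moved in opposite directions. Ankrd1, an ankyrin repeat protein that responds to stretch, rose from 35.2, 41.3, 36.6 and 26.6 CPM to 1262, 2103, 1246 and 1793 CPM (log2 5.52 ± 0.59 SE, adjusted p 7.79e-07). Its relative Ankrd2 fell from 134, 106, 72.8 and 80.4 CPM to 15.03, 6.18, 4.42 and 6.58 CPM (log2 -3.60 ± 0.37 SE, adjusted p 4.97e-07). Of this list 12 of 18 fell and 3 rose (8 and 5 with library totals), among the falls Myom2, a protein of the M-band, from between 2335 and 2739 CPM to between 432 and 606 CPM (log2 -2.26 ± 0.16 SE, adjusted p 6.14e-09). Among 19 intermediate filament and membrane-linked genes 6 rose and 7 fell (13 and 4 with library totals). Krt18, a keratin, was close to absent in the controls with 9 fragments in the 4 libraries, or 0.113, 0.0367, 0.134 and 0.144 CPM. At 10 days it stood at 6.67, 28.5, 15.3 and 16.5 CPM, low in replicate 1 and high in replicate 2 (log2 7.29 ± 0.91 SE, adjusted p 4.53e-06). Cav3, the caveolin of the muscle membrane, fell from 162, 146, 186 and 175 CPM to 36.7, 15.8, 26.1 and 28.6 CPM (log2 -2.64 ± 0.21 SE, adjusted p 3.2e-08). Nos1, the nitric oxide synthase held at that membrane, was called higher by a small amount (log2 0.49 ± 0.17 SE, adjusted p 0.0193), a call lost without replicate 2 or replicate 3 of 0 days.

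Genes of protein breakdown rose in part. Of 23 ubiquitin ligases and related atrophy genes 11 rose and 6 fell, a median of 0.35, and with library totals 20 rose and 0 fell. Fbxo32, the ligase atrogin-1, had 69.05, 38.3, 46.5 and 49.1 CPM in the controls and 167, 212, 172 and 147 CPM at 10 days (log2 1.79 ± 0.23 SE, adjusted p 7.24e-06). Trim63, the ligase MuRF1, rose less, from 376, 471, 361 and 271 CPM to 553, 807, 737 and 555 CPM (log2 0.84 ± 0.24 SE, adjusted p 0.00580). Fbxo30, a ligase known as MUSA1, rose from 27.5, 24.4, 25.9 and 24.2 CPM to 124, 123, 119.9 and 137 CPM with little spread (log2 2.30 ± 0.16 SE, adjusted p 4.48e-09). The largest rise of the list was that of Mt1a, a metal-binding metallothionein, from 1.01, 1.83, 1.12 and 1.05 CPM to 47.9, 38.9, 46 and 53.6 CPM (log2 5.18 ± 0.46 SE, adjusted p 1.22e-07). Klf15, a transcription factor induced by glucocorticoids, fell from between 70.8 and 90.4 CPM to between 35.9 and 58.4 CPM (log2 -0.73 ± 0.13 SE, adjusted p 0.000122), a call lost with library totals (-0.08).

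Proteasome subunits rose by small amounts, 22 of 34, with a median of 0.23, and 4 fell. With library totals 34 of 34 were called higher. Psmd11, a subunit of the regulatory cap, went from 199, 198, 184 and 179 CPM to 309, 349, 313 and 325 CPM (log2 0.77 ± 0.09 SE, adjusted p 1.26e-06), and Psmd5, a chaperone of the cap's assembly, from between 31.6 and 37.7 CPM to between 55.3 and 65.05 CPM (log2 0.78 ± 0.08 SE, adjusted p 1.85e-07). Psmb6, a catalytic subunit, was called lower (log2 -0.45 ± 0.08 SE, adjusted p 7.04e-05), and with library totals it was called higher (0.20, adjusted p 0.0114). Psmb8 and Psmb9, which replace catalytic subunits in the immunoproteasome and are not among these 34 genes, rose (0.87 and 1.22).

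In autophagy and the lysosome, 17 of 33 genes rose and 6 fell, with a median of 0.37, and with library totals 30 rose and 0 fell. Ctsl1, an older symbol of the lysosomal protease cathepsin L, had 126, 129.9, 110.4 and 127 CPM in the controls and 963, 1479.5, 1006 and 1227 CPM at 10 days (log2 3.24 ± 0.18 SE, adjusted p 8.47e-10). Sqstm1, the autophagy receptor p62, went from 925, 893, 844 and 887 CPM to 1415, 1924, 1641 and 1602 CPM (log2 0.89 ± 0.10 SE, adjusted p 7.58e-07). Tfeb, a transcription factor of lysosomal genes, was called lower (log2 -0.71 ± 0.09 SE, adjusted p 4.76e-06), which was lost with library totals (-0.06). Polyamine genes split 4 higher and 4 lower out of 10 (7 and 3 with library totals). Sat1, which starts the breakdown of polyamines, rose from 29.5, 31.8, 28.1 and 23.2 CPM to 228, 224, 244 and 257 CPM (log2 3.08 ± 0.11 SE, adjusted p 1.58e-11). Amd1 and Smox, which act in polyamine synthesis and oxidation, fell (log2 -0.98 ± 0.08 SE, adjusted p 3.08e-08 for Amd1 and -1.08 for Smox).

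**Figure D2:**
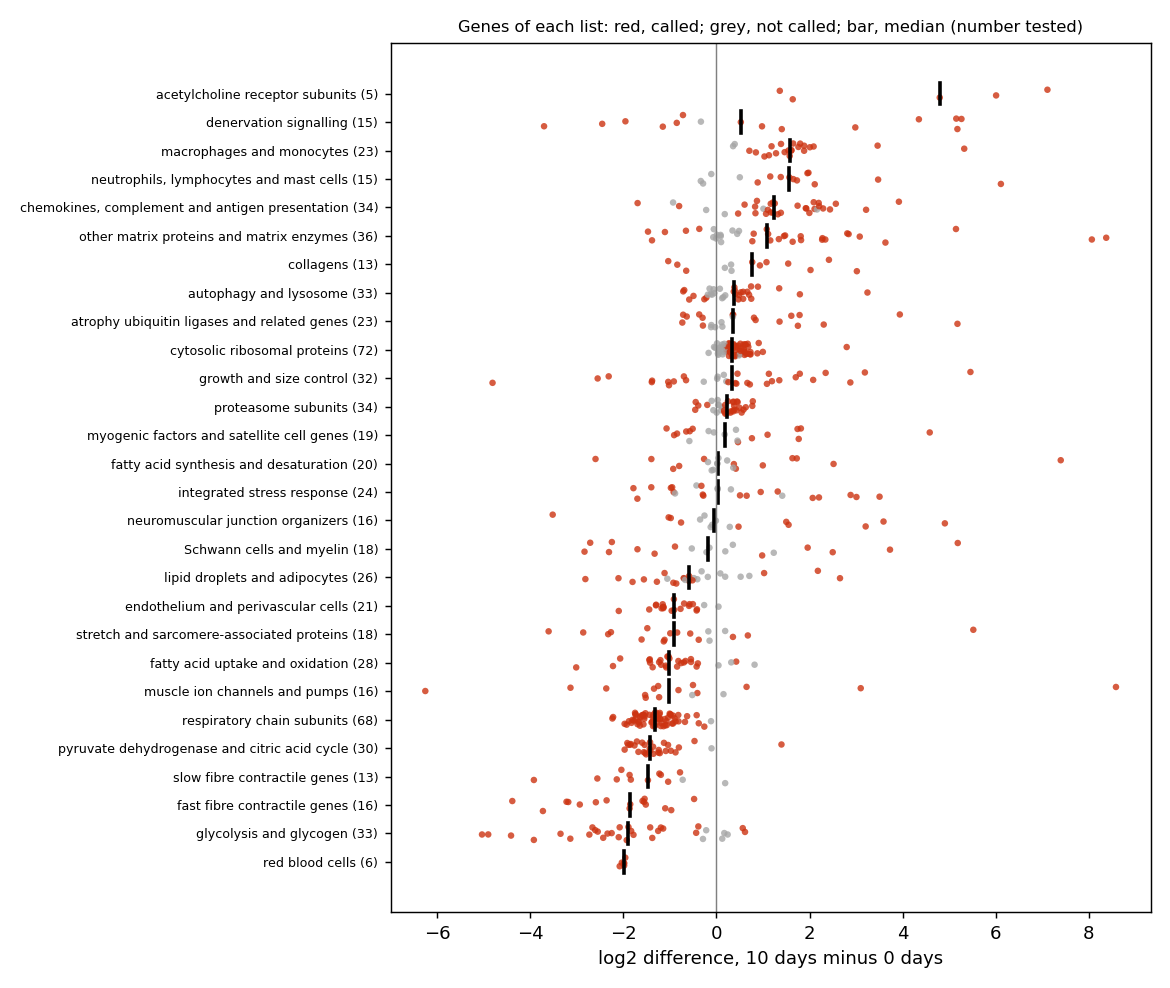
Log2 difference (10 days minus 0 days) of every tested gene of 28 lists, red where called and grey where not, with a black bar at each list's median and the number tested in brackets. Respiratory chain genes all lie to the left of 0, while signalling, channel and synapse lists spread to both sides.

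Energy metabolism fell across pathways. Of 33 glycolysis and glycogen genes 26 fell and 2 rose (24 and 7 with library totals), with a median of -1.89, and their share of fragments was 8.29% to 8.69% at 0 days and 2.57% to 3.09% at 10 days. Slc16a3, the lactate exporter MCT4, had 262, 286, 383 and 256 CPM in the controls and 19.8, 5.49, 5.21 and 5.59 CPM at 10 days (log2 -5.03 ± 0.51 SE, adjusted p 4.97e-07). Replicate 1 was the high one at 10 days, and without it the difference was -5.77. Gpd1, the glycerol phosphate dehydrogenase, fell from 1623, 1616, 1599.9 and 1556 CPM to 79.6, 77.1, 71.8 and 72.3 CPM, nearly the same in each library of a group (log2 -4.41 ± 0.19 SE, adjusted p 6.29e-11). Fbp2, the muscle fructose bisphosphatase, fell from 133, 129, 119 and 143 CPM to 6.12, 1.68, 5.01 and 4.64 CPM (log2 -4.90 ± 0.50 SE, adjusted p 5.25e-07). Pygm, the muscle glycogen phosphorylase, went from between 14888 and 16735 CPM to between 2253 and 2876 CPM (log2 -2.60 ± 0.19 SE, adjusted p 5.98e-09), and Pgam2, the muscle phosphoglycerate mutase, from between 4209 and 5290.4 CPM to between 455 and 698 CPM (log2 -3.14 ± 0.24 SE, adjusted p 1.23e-08). The 2 genes that rose were Gbe1, the glycogen branching enzyme (log2 0.61 ± 0.10 SE, adjusted p 5.41e-05), and Pfkl, the liver isoform of phosphofructokinase (0.57). The muscle isoform Pfkm fell (-2.66).

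Mitochondrial genes fell with few exceptions. In pyruvate dehydrogenase and the citric acid cycle 28 of 30 genes were lower (median -1.42), and in the respiratory chain 67 of 68 (median -1.33). With library totals these were 25 and 58, with 2 and 4 genes higher. Mdh2, the malate dehydrogenase of the cycle, fell from 1241, 1291, 1419 and 1350.4 CPM to 403, 319, 298 and 332 CPM (log2 -1.97 ± 0.15 SE, adjusted p 1.28e-08), and Idh3a, an isocitrate dehydrogenase subunit, from between 695 and 771 CPM to between 232 and 296 CPM (log2 -1.51 ± 0.11 SE, adjusted p 5.1e-09). Ndufs7 and Ndufs1, subunits of complex I, fell by 2.23 and 1.56 on the log2 scale. Ndufs7 stood at 486, 476, 514 and 522 CPM in the controls and 119, 112, 101 and 93.3 CPM at 10 days (adjusted p 5.98e-09). Cox6a2, the muscle isoform of a cytochrome oxidase subunit, fell from between 1552 and 1766 CPM to between 411 and 532 CPM (log2 -1.88 ± 0.15 SE, adjusted p 1.78e-08). Its general isoform Cox6a1 fell far less (-0.26), and with library totals it turned higher (0.40, adjusted p 0.00105). Its call was also lost without replicate 3 of 0 days, without replicate 2 or 3 of 10 days and with upper-quartile factors. The single gene of the respiratory list that was not called was Cox8a (-0.12), a further cytochrome oxidase subunit, which with library totals was called higher (0.54). Pdk3, a kinase that inhibits pyruvate dehydrogenase, was the 1 gene of the cycle list called higher (log2 1.40 ± 0.23 SE, adjusted p 5.5e-05), while its relative Pdk4 fell from 548, 381, 203 and 255 CPM to 92.4, 57.7, 137 and 80.8 CPM (log2 -1.91 ± 0.43 SE, adjusted p 0.00119).

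Fatty acid uptake and oxidation had 24 of 28 genes lower and 1 higher, with a median of -1.02, and with library totals 14 were lower and 5 higher. Acsl6, an acyl-CoA synthetase, fell from 124, 117, 139 and 118 CPM to 20.7, 11.5, 13.05 and 16.5 CPM (log2 -3.01 ± 0.14 SE, adjusted p 1.21e-10), and Acadm, the medium-chain dehydrogenase, from between 1281 and 1388 CPM to between 266 and 391 CPM (log2 -2.07 ± 0.16 SE, adjusted p 1.66e-08). Slc27a4, a fatty acid transporter, was the gene called higher (log2 0.43 ± 0.10 SE, adjusted p 0.00178). Ucp3, an uncoupling protein that follows fatty acid supply, overlapped between groups, with 208, 83.5, 33.1 and 85.2 CPM in the controls and 112, 157, 305 and 148 CPM at 10 days (log2 0.82, adjusted p 0.174). Without replicate 1 of 0 days it was called higher (1.43), as it was with library totals (1.48). Among 14 regulators of mitochondria 9 fell and 1 rose (5 and 3 with library totals). RGD1304931, listed today as Perm1, a muscle partner of PGC-1 proteins, fell the furthest, from 385, 494, 427 and 365 CPM to 54.6, 20.4, 13.5 and 19.5 CPM (log2 -3.95 ± 0.43 SE, adjusted p 1.07e-06), and without replicate 1 of 10 days by -4.55. Ppargc1a, the coactivator PGC-1alpha, fell from 17.7, 14.01, 14.7 and 16.05 CPM to 8.85, 5.85, 4.18 and 7.81 CPM (log2 -1.22 ± 0.17 SE, adjusted p 1.02e-05). The rise was in Gabpa, a transcription factor of respiratory genes (log2 0.79 ± 0.09 SE, adjusted p 1.75e-06).

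Handling of creatine, adenylates and oxygen split, 7 of 12 genes lower and 4 higher (6 and 6 with library totals). Ckm, the muscle creatine kinase, fell from 35127, 31786, 35638 and 36972 CPM to 5737, 4905, 5370.3 and 4803 CPM (log2 -2.74 ± 0.20 SE, adjusted p 5.98e-09), and Ak1, adenylate kinase, from between 1418 and 1666 CPM to between 137 and 196 CPM (log2 -3.19 ± 0.22 SE, adjusted p 6.3e-09). Ampd3, the AMP deaminase of non-muscle tissue, rose from 26.4, 34.4, 26.1 and 27.6 CPM to 288, 462, 359.7 and 342 CPM (log2 3.66 ± 0.28 SE, adjusted p 2.37e-08), while the muscle isoform Ampd1 fell (-1.06). Car3, the carbonic anhydrase of slow fibres, and Mb, myoglobin, also rose (1.77 and 0.50). Ckb, the brain creatine kinase, overlapped between groups and was not called (0.15, adjusted p 0.521), and with library totals it was called higher (0.81).

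**Figure D3:**
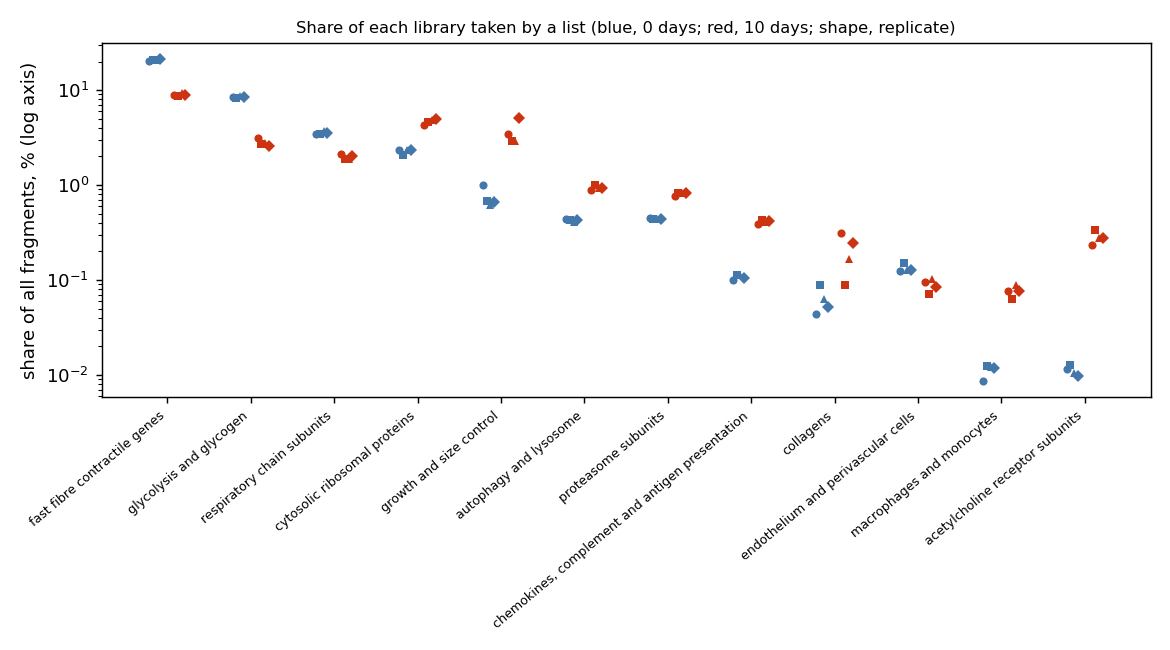
Share of all fragments of each library (%, log axis, no TMM scaling) taken by 12 gene lists, blue at 0 days and red at 10 days, with shapes for replicates. Fast fibre, glycolysis and respiratory chain genes took a smaller share in every 10-day library, and receptor subunits a share 25.4 times as large on average.

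Genes of lipid storage leaned lower, 12 of 26, with 3 higher and a median of -0.59. With library totals 6 were lower and 6 higher, and the median turned to 0.07. Plin2, the coat protein of lipid droplets, rose from 29.3, 36.4, 27.8 and 35.5 CPM to 147, 244, 199.8 and 221 CPM (log2 2.65 ± 0.20 SE, adjusted p 1.43e-08). Lpin1, a phosphatidate phosphatase of triglyceride synthesis, fell from 101, 90.6, 80.2 and 71.8 CPM to 22.3, 21.3, 18.9 and 17.6 CPM (log2 -2.10 ± 0.16 SE, adjusted p 1.09e-08), and Pnpla3, a lipase-like protein, from between 4.69 and 5.68 CPM to between 0.558 and 1.13 CPM (log2 -2.81 ± 0.21 SE, adjusted p 8.79e-09). Lpl, lipoprotein lipase, was called lower (log2 -0.59 ± 0.15 SE, adjusted p 0.00228), and with library totals its direction turned (0.07, not called). The defining adipocyte genes Adipoq, Plin1 and Cidec overlapped between groups and were not called (-0.48, -0.70 and -0.41), and with library totals Adipoq and Cidec turned to 0.18 and 0.25, also not called. Without replicate 3 of 0 days Cidec stood at 0.015.

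In fatty acid synthesis 7 of 20 genes rose and 5 fell (16 and 2 with library totals). Scd1, a desaturase that makes monounsaturated fatty acids, stood at 6.92, 4.402, 6.51 and 4.07 CPM in the controls and 890.4, 1027, 772 and 975 CPM at 10 days (log2 7.39 ± 0.36 SE, adjusted p 4.46e-10). Its relative Scd, which current RefSeq names Scd2, rose less, from 32.6, 41.4, 36.1 and 31.4 CPM to 205, 168, 242 and 194 CPM (log2 2.52 ± 0.21 SE, adjusted p 5.22e-08). Mlxipl, the glucose sensor ChREBP, fell from 61.8, 93.4, 76.96 and 72.04 CPM to 14.6, 11.7, 11.7 and 12.3 CPM (log2 -2.60 ± 0.17 SE, adjusted p 3.95e-09). Fads1, a desaturase of polyunsaturated fatty acids, was not called (0.23, adjusted p 0.185), and with library totals it was called higher (0.89). Of 24 cholesterol genes 7 rose and 11 fell (15 and 4 with library totals), and the list stood at a median of 0.00, and with library totals at 0.66. Lss, lanosterol synthase, rose from 5.85, 5.43, 4.73 and 5.7 CPM to 20.4, 31.3, 24.4 and 25.4 CPM (log2 2.23 ± 0.14 SE, adjusted p 1.73e-09), while Fdft1, squalene synthase, fell from between 164 and 180.4 CPM to between 43.95 and 58.9 CPM (log2 -1.78 ± 0.10 SE, adjusted p 8.47e-10). Sqle, which acts between these 2 enzymes, was not called (0.17, and 0.83 with library totals, which was called).

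Ribosomal protein genes rose by small amounts, 53 of 72 (72 with library totals) with 0 falling, and their share of fragments went from 2.33%, 2.09%, 2.36% and 2.36% to 4.27%, 4.67%, 4.801% and 5.01%. Their median was 0.34. Rpl3 stood out with 76.7, 86.9, 90.3 and 95.4 CPM in the controls and 610.3, 589.5, 541 and 688 CPM at 10 days (log2 2.80 ± 0.21 SE, adjusted p 1.25e-08). Its muscle paralog Rpl3l moved the other way, from 913, 889, 946 and 918 CPM to 277, 271, 281 and 193 CPM (log2 -1.84 ± 0.18 SE, adjusted p 2.34e-07). For both genes the groups did not overlap. The 2 genes are close in sequence, and how the counting split reads between such copies is not given in the sources used here, so their values are uncertain. A further 5 ribosomal genes, Rpl7a, Rpl8, Rplp2, Rps6 and Rps9, were listed at 0 in all 16 libraries, which can be a failed estimate.

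Of 20 aminoacyl-tRNA synthetases 9 rose and 3 fell, and with library totals 20 rose. Farsb, which charges phenylalanine, rose from 59.9, 64.9, 62.2 and 58.7 CPM to 151, 139.7, 148 and 132 CPM (log2 1.21 ± 0.13 SE, adjusted p 3.56e-07). Sars and Aars, for serine and alanine, were called lower (-0.40 and -0.28), and with library totals both were called higher (0.26 and 0.38). In the integrated stress response, which slows translation under stress, 9 of 24 genes rose and 9 fell (16 and 4 with library totals). Its central factor Atf4 fell from 553, 543, 603 and 613 CPM to 161, 161, 161 and 189 CPM (log2 -1.78 ± 0.12 SE, adjusted p 3.23e-09). Fgf21, a hormone released by stressed muscle, rose from 0.0562, 0.0734, 0.134 and 0.335 CPM to 1.02, 2.37, 1.45 and 2.09 CPM (log2 3.50 ± 0.47 SE, adjusted p 6.05e-06), and so did Asns, asparagine synthetase (log2 2.07 ± 0.45 SE, adjusted p 0.000713), both from 1 CPM or less in the controls. Without replicate 4 of 0 days the difference of Fgf21 was 4.21. Atf3, a stress-induced relative of Atf4, varied between 11.5 and 109.8 CPM among the controls and overlapped with the 10-day libraries (log2 -1.70 ± 0.54 SE, adjusted p 0.0125), and its call was lost with library totals (-1.04) and without replicate 2 of 0 days.

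Heat shock proteins split within families, 8 of 28 higher and 11 lower (19 and 4 with library totals), and the median of -0.11 turned to 0.55 under that scaling. Hspb8 and Hspb7, small chaperones of the sarcomere, rose (log2 1.56 ± 0.16 SE, adjusted p 2.83e-07 for Hspb8 and 1.02 for Hspb7). Hspb6, another small chaperone, fell from 2249, 2468, 2094 and 2038 CPM to 772, 293, 262 and 383 CPM, least in replicate 1 (log2 -2.37 ± 0.27 SE, adjusted p 1.63e-06). Of 25 antioxidant genes 11 rose and 9 fell (19 and 4 with library totals). Hmox1, heme oxygenase, rose from 7.82, 7.96, 6.42 and 7.19 CPM to 28.7, 28.1, 42.6 and 39.2 CPM (log2 2.24 ± 0.21 SE, adjusted p 1.72e-07), while Sod3, the extracellular superoxide dismutase, fell from between 67.8 and 90.7 CPM to between 23.5 and 33.2 CPM (log2 -1.50 ± 0.16 SE, adjusted p 4.87e-07). Of 15 clock genes 8 fell and 0 rose, with a median of -0.44, and with library totals 3 fell and 7 rose, with a median of 0.22. Without replicate 3 of 0 days or replicate 3 of 10 days 5 clock genes fell. Dbp, an output gene of the clock, spread between 141 and 352 CPM among the controls and overlapped, and its call (log2 -0.67 ± 0.26 SE, adjusted p 0.0340) was lost in 5 of the 8 fits that left out 1 library, with library totals, with no filter on low counts, with the compared groups alone and with the title letter. Nfil3, a repressor of clock output, fell from between 32.3 and 60.9 CPM to between 7.56 and 16.97 CPM (log2 -1.98 ± 0.29 SE, adjusted p 2.17e-05). Arntl, now named Bmal1, was not called (0.20, adjusted p 0.607), and with library totals it was (0.85). The labels used here give no hour of sampling.

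Growth control showed large changes in opposite directions, 17 of 32 genes higher and 10 lower (21 and 6 with library totals). Fst, the secreted myostatin inhibitor follistatin, rose from 1.12, 1.28, 0.848 and 0.383 CPM to 31.2, 50.2, 33.3 and 47.9 CPM (log2 5.46 ± 0.35 SE, adjusted p 4.47e-09), and myostatin itself, Mstn, fell from 12.99, 16.6, 11.2 and 13.03 CPM to 2.15, 1.91, 4.98 and 1.84 CPM (log2 -2.31 ± 0.31 SE, adjusted p 6.61e-06). H19, an imprinted non-coding RNA, rose from 10970.4, 6882, 6209 and 6834 CPM to 25646, 21354, 20740.4 and 39158 CPM (log2 1.79 ± 0.33 SE, adjusted p 0.000198). Its imprinted neighbour Igf2, an insulin-like growth factor, rose too (log2 2.08 ± 0.30 SE, adjusted p 1.78e-05). Igfbp5, a binding protein of these factors, rose from between 60.6 and 75.2 CPM to between 533 and 784 CPM (log2 3.19 ± 0.15 SE, adjusted p 1.21e-10). Igf1 was higher by less (log2 0.66 ± 0.17 SE, adjusted p 0.00318). Cish, an inhibitor of cytokine signalling, fell from 119, 220.3, 134 and 29.7 CPM to 4.32, 2.14, 8.77 and 2.77 CPM (log2 -4.81 ± 0.78 SE, adjusted p 8.34e-05). Its controls differed by more than 7-fold, yet the lowest control was above every 10-day library.

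The list of cell division includes Cdkn1a, described above. Of its 36 genes 13 rose and 4 fell, and with library totals 29 rose. Mki67, the marker of cycling cells, overlapped between groups with 1.91, 1.91, 1.78 and 2.16 CPM in the controls and 3.37, 1.41, 3.92 and 2.92 CPM at 10 days (log2 0.58, adjusted p 0.0787), and it was called higher with library totals (1.25), with a term for the letter in each library's title (0.65) and without replicate 2 of 10 days (0.81). Ccnd1, cyclin D1, was not called (-0.11) and turned higher with library totals (0.55, adjusted p 0.0140). Ccnd2, cyclin D2, fell from between 5.7 and 7.76 CPM to between 1.35 and 3.37 CPM (log2 -1.43 ± 0.24 SE, adjusted p 7.4e-05). Rb1, a brake on division, rose from between 71.8 and 74.4 CPM to between 248 and 316 CPM (log2 1.95 ± 0.13 SE, adjusted p 4.24e-09).

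Matrix genes rose with a wide spread between libraries. Of 36 matrix proteins and enzymes 21 rose and 5 fell (median 1.10), and of 13 collagens 7 rose and 3 fell (30 and 3, and 10 and 0, with library totals). Without replicate 1 of 0 days or replicate 1 of 10 days 4 collagens rose. The summed share of collagens was 0.0441% to 0.0892% of fragments at 0 days and 0.0892% to 0.309% at 10 days. These shares overlapped and their difference was not called (exact permutation p = 0.0571, adjusted p 0.0611). Col1a2 was listed at 0 in all 16 libraries. Col1a1, the main fibrillar collagen, stood at 74.3, 198, 149.8 and 99.3 CPM in the controls and 1151, 256, 509 and 870.1 CPM at 10 days (log2 2.42 ± 0.46 SE, adjusted p 0.000285). Replicates 1 and 4 of 10 days were the high ones and replicate 2 came near the highest control. Tnc, the matrix protein tenascin C, showed the same order, with 2.98, 4.88, 2.86 and 1.58 CPM in the controls and 37.3, 5.65, 9.33 and 35.1 CPM at 10 days (log2 2.81 ± 0.57 SE, adjusted p 0.000467). Tnn, tenascin N, had 8 fragments in all 4 controls and stood at 40.2, 7.52, 21.1 and 33.3 CPM at 10 days (log2 8.06 ± 1.25 SE, adjusted p 4.33e-05), and without replicate 4 of 0 days the difference was 9.54. Mmp12, the macrophage elastase, had 2 fragments in the controls against 1151 at 10 days, a ratio of 398 with a 95% counting interval of 109.9 to 3289. Its 10-day values were 7.86, 3.94, 17 and 7.5 CPM. Spp1, the secreted phosphoprotein osteopontin, rose from 3.37, 2.68, 1.83 and 2.63 CPM to 39.3, 15.3, 53.2 and 21.6 CPM (log2 3.63 ± 0.64 SE, adjusted p 0.000144), and Timp1, a protease inhibitor, from between 2.19 and 4.33 CPM to between 4.99 and 11.98 CPM (log2 1.45 ± 0.32 SE, adjusted p 0.000972). Col11a1, a collagen of cartilage and tendon, rose from 2.19, 2.75, 2.45 and 2.35 CPM to 25.97, 10.4, 13.97 and 28.98 CPM (log2 3.02 ± 0.38 SE, adjusted p 4.7e-06). Adamts1, a matrix protease, fell (log2 -1.47 ± 0.24 SE, adjusted p 6.51e-05), and Col5a3, a minor collagen, was lower with a call lost under library totals (-1.03 and -0.37).

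Of 16 genes of fibro-adipogenic progenitors and fibroblasts 6 rose and 4 fell (11 and 0 with library totals), and their summed share was 0.0541% to 0.0861% of fragments at 0 days and 0.108% to 0.123% at 10 days, with Cd34 listed at 0 in all libraries. Pdgfra, their receptor marker, rose from 9.11, 13.1, 9.28 and 8.38 CPM to 19.5, 14.7, 18.6 and 18.7 CPM (log2 0.83 ± 0.18 SE, adjusted p 0.000635), and Thy1, a surface protein of fibroblasts, from 1.18, 1.94, 1.25 and 1.198 CPM to 11.8, 3.42, 6.76 and 11.03 CPM (log2 2.54 ± 0.46 SE, adjusted p 0.000166). Osr1, a factor of progenitors, was lower (-0.81), a call lost with library totals (-0.16). Of 8 tendon genes 5 rose and 1 fell (5 and 0 with library totals), with a summed share of 0.00854% to 0.00981% at 0 days and 0.0167% to 0.0242% at 10 days. Only 3 tendon genes rose in 6 of the 8 fits that left out 1 library, namely each control in turn and replicates 1 and 4 of 10 days. Comp, the cartilage oligomeric matrix protein, rose from 1.07, 1.25, 0.892 and 1.25 CPM to 12.8, 4.21, 6.85 and 8.88 CPM (log2 2.87 ± 0.32 SE, adjusted p 8.26e-07), while Prg4, the lubricant of gliding surfaces, was lower (-0.78), which was lost with library totals (-0.12). The part of these cells in the matrix values was not tested.

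Immune genes rose. Of 23 macrophage genes 21 rose and 0 fell (median 1.57), with a summed share of 0.00872% to 0.0124% of fragments at 0 days and 0.0636% to 0.0887% at 10 days. Cd68, a lysosomal protein of macrophages, had 0.619, 1.87, 1.87 and 2.25 CPM in the controls and 7.75, 5.16, 11.01 and 4.73 CPM at 10 days (log2 2.09 ± 0.38 SE, adjusted p 0.000182). C1qa, the complement protein they secrete, rose from 5.398, 10.5, 9.95 and 10.8 CPM to 21.04, 15.6, 21.6 and 17.1 CPM (log2 1.03 ± 0.22 SE, adjusted p 0.000605). Gpnmb, a glycoprotein of lipid-laden macrophages and of denervated muscle, rose from 5.68, 5.76, 6.202 and 7.904 CPM to 214, 225, 289 and 293 CPM (log2 5.32 ± 0.32 SE, adjusted p 2.12e-09). Cathepsin L and Mmp12, which macrophages also make, rose beside this list, and the part of macrophages in the values of Gpnmb and Ctsl1 was not tested. 

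Other leukocytes were near the limit of the depth. Of 15 tested markers 11 rose, with a summed share of 0.000549% to 0.00078% at 0 days and 0.00291% to 0.00365% at 10 days. Without replicate 4 of 0 days or replicate 3 of 10 days 8 of these markers rose. Cd3e, of T cells, stood under 1 CPM in every library and overlapped (log2 1.96 ± 0.65 SE, adjusted p 0.0149), and its call was lost without replicate 2 of 0 days. Without replicate 3 of 0 days the difference was 3.56. S100a8, of neutrophils, had 6 fragments in the controls and rose to 2.38, 7.72, 4.45 and 5.44 CPM (log2 6.11 ± 0.80 SE, adjusted p 7.43e-06), whereas its partner S100a9 was not called (-0.34, adjusted p 0.493, and 0.32 with library totals). The B-cell markers Cd79b and Ms4a1 held 94 and 35 fragments over all 16 libraries and were not tested. Of 34 genes of chemokines, complement and antigen presentation 27 rose and 2 fell (30 and 1 with library totals). C3, the central complement protein, rose from 0.675, 0.697, 0.982 and 0.766 CPM to 6.85, 5.75, 11.2 and 5.41 CPM (log2 3.21 ± 0.36 SE, adjusted p 1.07e-06), B2m, the light chain of class I molecules, from between 348 and 424 CPM to between 1564 and 2034 CPM (log2 2.21 ± 0.19 SE, adjusted p 6.22e-08), and Cxcl13, a chemokine for B cells, from 0.225, 0.293, 0.134 and 0.479 CPM to 3.57, 2.595, 8.83 and 2.43 CPM (log2 3.92 ± 0.57 SE, adjusted p 1.92e-05), or 3.32 without replicate 3 of 10 days. The 2 falls were in Cd55, an inhibitor of complement (log2 -1.69 ± 0.15 SE, adjusted p 6.22e-08), and Cxcl12, a chemokine made by stromal cells (-0.80), whose call was lost with library totals (-0.14). Ccl2, a chemokine for monocytes, was called higher with overlapping groups (log2 1.32 ± 0.37 SE, adjusted p 0.00572).

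Schwann cell genes moved both ways. Of 18 genes 5 rose and 7 fell (8 and 4 with library totals), and the median of -0.18 turned to 0.48 with library totals and to 0.055 without replicate 2 of 0 days. Mal, a protein of myelin membranes, fell from 7.48, 6.75, 6.92 and 10.3 CPM to 1.97, 1.84, 1.65 and 0.861 CPM (log2 -2.31 ± 0.30 SE, adjusted p 5.73e-06), and the groups did not overlap. Mag, a myelin glycoprotein, was under 1 CPM in every library of both groups and fell (log2 -2.71 ± 0.72 SE, adjusted p 0.00361), and without replicate 1 of 10 days the difference was -4.06. Ngfr, the low-affinity neurotrophin receptor that Schwann cells make when they lose their axon, rose from 0.4498, 0.9904, 0.446 and 0.239 CPM to 8.04, 6.64, 8.27 and 6.64 CPM (log2 3.73 ± 0.41 SE, adjusted p 9.31e-07). Artn and Gdnf, growth factors for neurons, rose (log2 5.18 ± 0.28 SE, adjusted p 4.79e-10 for Artn and 2.50 for Gdnf), and Artn had 13 fragments in all 4 controls. Genes of vessels fell, 19 of 21 with 0 rising and a median of -0.91, and with library totals 7 fell and 1 rose. Their summed share was 0.124% to 0.151% at 0 days and 0.0707% to 0.101% at 10 days. Vegfa, the growth factor for vessels that fibres secrete, went from 663, 843, 719 and 664 CPM to 182, 162, 156 and 176 CPM (log2 -2.10 ± 0.16 SE, adjusted p 1.5e-08), and its receptor Kdr from between 50.4 and 69.98 CPM to between 17.6 and 28.7 CPM (log2 -1.30 ± 0.18 SE, adjusted p 9.32e-06). All 6 red blood cell genes were lower. Hbb, a haemoglobin chain, had 348, 339, 1076 and 348 CPM in the controls, where replicate 3 stood apart, and 124, 138, 133 and 106 CPM at 10 days (log2 -2.08 ± 0.42 SE, adjusted p 0.000433). Without that control the difference was -1.46.

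Outside these lists, the largest rise among genes with a mean of at least 5 CPM and no overlap between groups was that of Adra1b, the alpha-1B adrenergic receptor. It had 5 fragments in all 4 controls and stood at 20.1, 25.3, 22.7 and 26.96 CPM at 10 days (log2 8.60 ± 0.44 SE, adjusted p 3.79e-10), and without replicate 3 of 0 days the difference was 9.41. Emb, a membrane partner of lactate transporters that acts in sprouting of motor nerves, rose from 0.787, 1.58, 1.52 and 1.15 CPM to 170.0, 134, 185 and 245 CPM (log2 7.15 ± 0.38 SE, adjusted p 8.47e-10). Ppp1r14c, an inhibitor of protein phosphatase 1, rose from 2.25, 1.54, 1.78 and 1.63 CPM to 168, 271, 227 and 214 CPM (log2 6.95 ± 0.40 SE, adjusted p 1.31e-09). Tac4, a tachykinin, rose from 11 fragments in the controls to 11.6, 24.9, 17.7 and 21.5 CPM (log2 7.19 ± 0.65 SE, adjusted p 1.34e-07). Blnk, an adaptor of B-cell receptor signalling, stood at 0.0562, 0.0734, 0.178 and 0.383 CPM in the controls and 15.2, 17.3, 17.9 and 17.2 CPM at 10 days (log2 6.59 ± 0.78 SE, adjusted p 2.66e-06, and 7.29 without replicate 4 of 0 days), in libraries where the B-cell markers above were too few to test. Among the largest falls were Acsm5, a medium-chain acyl-CoA synthetase, from 24.1, 21.9, 19.9 and 22.4 CPM to 0.638, 0.526, 0.494 and 0.492 CPM (log2 -5.34 ± 0.32 SE, adjusted p 1.26e-09), and Dhrs7c, a dehydrogenase of the calcium store, from between 467 and 535 CPM to between 11.7 and 30.6 CPM (log2 -4.77 ± 0.36 SE, adjusted p 1.83e-08). Mlf1, a myeloid leukaemia factor that muscle expresses, Sec14l5, a lipid-binding protein, and Asb18, of a family of ligase adaptors, fell by 4.59, 4.56 and 4.49 on the log2 scale. Without replicate 1 of 10 days the differences of Sec14l5 and Asb18 were -5.36 and -5.22. For all of these falls the groups did not overlap, which the rule that picked them required.

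The later libraries show what was particular in time. These comparisons share the 10-day libraries with the one above, so values are set side by side and overlaps are not read as support. Against 30 days 24.3% of genes were called higher at 10 days and 23.0% lower, and against 60 days 31.9% and 29.1%. With library totals the called genes were higher at 10 days in 72.4% and 72.1% of cases, in place of 51.4% and 52.3%. Called higher at 10 days than at 0, 30 and 60 days at once were 1345 genes, 11.5% of all, and called lower than at all 3 were 1354, 11.6%. With library totals 85.7% of these genes were on the higher side, in place of 49.8%.

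Among the highest at 10 days alone, Hsd11b2, which inactivates glucocorticoids, stood at 16.5, 30.1, 29.5 and 27.3 CPM in the 10-day libraries. Its mean was 0.333 ± 0.146 CPM (SD, n = 4) in the controls, 3.204 ± 0.337 CPM in the 30-day libraries and 1.37 ± 0.8703 CPM in the 60-day libraries. Its smallest of the 3 differences was 3.00, against 30 days (adjusted p 6.15e-07). Slc6a9, the glycine transporter GlyT1, stood at 13.6, 14.4, 18.8 and 18.6 CPM at 10 days and between 1.69 and 2.08 CPM on average at the other times (3.17 against 0 days, 2.97 against 30 days and 3.27 against 60 days). Cdv3, named for its link to carnitine deficiency, had a mean of 243 ± 33.6 CPM (SD, n = 4) in the 10-day libraries and of 47.6 ± 3.24 CPM in the controls. Later its mean was 34.5 ± 11.4 CPM by 30 days and 20.2 ± 13.7 CPM by 60 days. Mgst2, a glutathione transferase, stood at 70.9, 115, 89.8 and 98.4 CPM in the 10-day libraries, against a mean of 2.05 ± 0.407 CPM in the controls, 13.9 ± 10.2 CPM by 30 days and 5.25 ± 0.766 CPM by 60 days. Adra1b was 2.53 above 30 days and 6.38 above 60 days, and Ctsl1 2.34 and 2.74. For each of these 6 genes the 10-day libraries did not overlap with the controls, which the rule that picked them required.

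Among the lowest at 10 days alone, Fbp2 had a mean of 4.36 ± 1.899 CPM (SD, n = 4) in the 10-day libraries, against 50.9 ± 31.3 CPM by 30 days and 141 ± 53.4 CPM by 60 days. Ostn, the muscle-secreted peptide osteocrin, stood at 6.63, 6.13, 6.34 and 5.56 CPM in the controls and 0.522, 0.6899, 0.791 and 0.891 CPM at 10 days, and averaged 29.7 ± 16.7 at 60 days (-5.35, adjusted p 6.46e-06). Ramp1, a subunit of the receptor for the nerve peptide CGRP, fell from between 36.2 and 57.5 CPM at 0 days to between 1.61 and 5.83 CPM at 10 days (log2 -3.82 ± 0.40 SE, adjusted p 6.57e-07), with differences of -2.92 from 30 days and -3.65 from 60 days. Adam11, a membrane protein of neurons, had differences of -2.82, -3.81 and -3.17 from 0, 30 and 60 days. Myl3 and Aqp4 complete these 6, with -3.50 and -3.14 against 30 days.

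**Figure D4:**
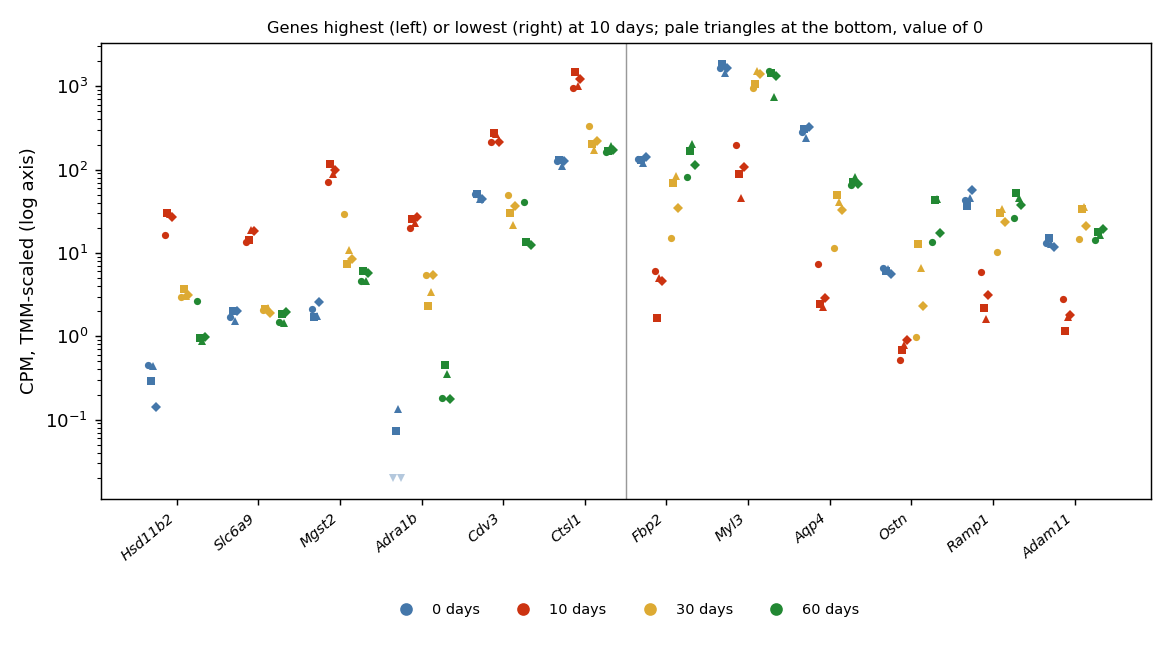
TMM-scaled CPM (log axis) of the 6 genes highest and the 6 lowest at 10 days against all other times, with every library of 0, 10, 30 and 60 days by colour and replicate by shape. Pale triangles at the bottom mark a value of 0, and in every gene the red points stand above the other colours on the left and below them on the right, with 1 library of 30 days close to the red points in Ostn.

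In the respiratory chain all 68 genes tested were lower at 10 than at 60 days, and in glycolysis 25 of 33. Against 60 days 4 of 5 receptor subunits were higher at 10 days, but against 30 days 1 of 5, Chrnd (0.83, adjusted p 0.0121). Fbxo32 was 3.27 above 30 days and 3.30 above 60 days, and Trim63 0.59 above 60 days (adjusted p 0.0395), with a difference from 30 days of 0.56 that was not called (adjusted p 0.0619). Myh3 was lower at 10 days than at 30 and 60 days (-1.99 and -1.86, adjusted p 0.000248 and 0.000246). Cd68 was not called against 30 or 60 days (0.04 and 0.09, adjusted p 0.933 and 0.832), while Gpnmb was 2.24 and 2.95 higher at 10 days.

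Spread within the 10-day group was small for most genes, with a median SD of 0.12 log2 units over 7125 genes of at least 10 CPM. Only 6 of these genes had an SD above 1. Widest was the spread of RT1-Bb, a class II histocompatibility chain, with 10.3, 0.697, 1.38 and 7.19 CPM in the controls and 30.2, 22.05, 30.7 and 1.41 CPM at 10 days (log2 2.16, adjusted p 0.102). It was called higher without replicate 4 of 10 days (2.55) and with library totals (2.81), and stood at 2.82 without replicate 1 of 0 days. Tnc and Tnn, given above, were among the 5 widest, with Nsg2, a neuron-enriched vesicle protein, at 17.7, 3.84, 18.7 and 23.7 CPM and C1qtnf3, a secreted protein of fibroblasts, at 19.9, 3.98, 10.2 and 20.1 CPM. In Tnc, Tnn, Col1a1, Thy1, Comp and C1qtnf3 replicate 2 was the lowest 10-day library. In Spp1, Cd68, Mmp12 and Cxcl13 replicate 3 was the highest. The depth of fall varied between libraries too. Of 1179 genes called lower by at least 2-fold, 55.8% had their highest 10-day value in replicate 1, against 9.58%, 20.95% and 13.7% in replicates 2 to 4. Of 1454 genes called higher by at least 2-fold, 32.9% were highest and 34.0% lowest in replicate 2. Without replicate 1 of 10 days 7034 genes were called, and without replicate 2 of 10 days 7052.

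**Figure D5:**
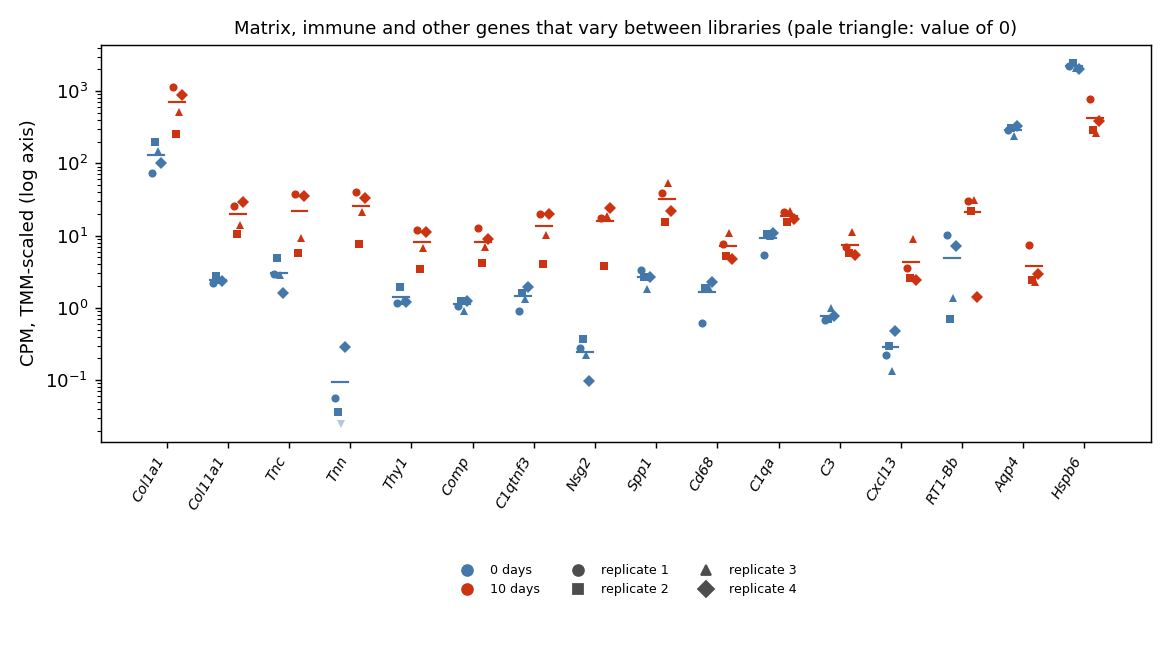
TMM-scaled CPM (log axis) of 16 genes in each library, blue at 0 days and red at 10 days, with shapes for replicates, bars for group means and a pale triangle at the bottom for a value of 0. In the matrix genes the red square (replicate 2) is the lowest 10-day library, and in Aqp4 and Hspb6 the red circle (replicate 1) is the highest.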

How the data were processed

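Messenger RNA of 16 supraspinatus muscles, 4 each at 0, 10, 30 and 60 days, was extracted with the miRNeasy kit and made into TruSeq mRNA version 2 libraries, per the labels' protocols. The authors deposited 1 table of raw fragments per gene and library, which are expected counts, not scaled for depth or gene length and fractional for 233 of 17147 genes. Per the submitters' processing notes, bcl2fastq 1.8.4, FastQC, TopHat2 2.0.9, Bowtie2, Cufflinks and Cuffdiff 2.1.1 were used with genome build rn5. Their settings, the annotation and the use of strand are not given in the sources used here, so reads of overlapping or antisense genes cannot be told apart. The table names genes by symbol alone. Without gene lengths, levels were not compared between genes.

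Counts were rounded and tested in R 4.3.3 with edgeR 4.0.16, by its quasi-likelihood test with robust fitting and TMM factors, in 1 fit of all 16 libraries. The filter on low counts kept 11658 genes, and 2637 of the rest were at 0 everywhere. P-values were adjusted by Benjamini-Hochberg over all tested genes, and a gene was called at an adjusted p under 0.05. SE is the log2 difference divided by the square root of its F statistic. Single values, such as a list's share of fragments, were tested by exact permutation, two-sided, which with 4 against 4 cannot go below 0.0286. On simulated data of 11527 genes for the 10 versus 0 day comparison, 73 of 100 genes changed 2-fold and 50 of 100 changed 1.5-fold were called, and 4 unchanged genes. Few genes changed in the simulation, as many up as down. In the data 62.7% of genes were called, so these rates may not carry over. Intervals and the level of 3 counts cover counting error only.

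The 42 gene lists, their members and the comparison were chosen with earlier results of these data known. Of 1049 list entries 1000 were found in the table, 42 of them by an older symbol and 3 by a RefSeq synonym. Named genes were a set of index genes for each topic, the largest called rise and fall of each list, and the 10 largest rises and falls of all genes with a mean of at least 5 CPM. Also named were the 6 genes highest and the 6 lowest at 10 days against every other time, and the 5 genes with the widest spread at 10 days. The 10 largest rises and falls and the 6 highest and lowest were taken only where the 0-day and 10-day libraries did not overlap. Accession, LOC and RGD symbols were left out of these picks. Beyond this rule, Chrnb1, Erbb2, Etv4, Dok7, Lamb2, Cacnb1, Fkbp1a, Psmb8, Psmb9, Pfkl, Pfkm, Cox6a1, Cox8a, Ampd1, Car3, Mb, Plin1, Cidec, Adipoq, Rpl3l, Igf2, Igfbp5, Rb1, Gdnf, Mal, Mag, B2m, Cxcl12, the genes listed at 0, Col1a2 among them, the B-cell markers and the genes of the closing observations were chosen after their values were seen. Alternatives were DESeq2 1.42.0, other scaling factors, library totals, no filter, a fit of the compared groups alone, a term for the letter in each library's title, a replicate block, and leaving out each library. Promoters came from RefSeq assembly GRCr8 by symbol, while the counts used rn5. A few genes of these lists are not reported here.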

Additional observations from a re-analysis of the deposited data

Results flagged for a closer look

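Within each group of 4 libraries, the highest or lowest library was set against the other 3 by Dixon's ratio at its 95% critical value. Of 470 groups tested over the named genes and list shares, 28 were flagged, and chance flags about 1 in 20. Replicate 1 of 10 days accounted for 9 of them, mostly as the high value of a gene that fell. It stood at 7.43 CPM in Aqp4 (others 2.24 to 2.92), 15.5 CPM in Ache (others 6.30 to 7.48) and 19.8 CPM in Slc16a3 (others 5.21 to 5.59). It also held 54.6 CPM in RGD1304931, 1.13 CPM in Pnpla3, 1.48 CPM in Asb18 and 17 CPM in Dok7, each the highest of the 4. Its share of fragments was the highest for pyruvate dehydrogenase and the citric acid cycle, at 1.00%, and the lowest for proteasome subunits, at 0.760%.

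At 10 days replicate 2 was high in Runx1 (217 CPM, others 108 to 125) and Igfbp5 (784 CPM, others 533 to 575), and low in the share of fatty acid uptake and oxidation, at 0.584%. Replicate 3 was high in Actn3 (2751 CPM) and Mstn (4.98 CPM). Replicate 4 was high in Atf4 (189 CPM), and low in Sqle (2.37 CPM) and Rpl3l (193 CPM).

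Among the controls replicate 3 stood apart in Hbb (1076 CPM, others 339 to 348), in the share of red blood cell genes (0.185%, others 0.0569% to 0.0657%) and in Cd3e (0.312 CPM). Replicate 1 was high in H19 (10970 CPM) and low in C1qa (5.40 CPM) and in the share of macrophage genes (0.00872%). Replicate 2 was high in Ckb (18.1 CPM), Mt1a (1.83 CPM) and Thy1 (1.94 CPM) and low in the share of ribosomal protein genes (2.09%). Replicate 4 was low in Cd55 (99.6 CPM).

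Between times, the difference itself was tested for all genes with edgeR. The 10-day libraries differed from those of 30 days in 5513 genes and from those of 60 days in 7120 genes, in fits that share the 10-day libraries.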

How the results depend on the processing

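The 7304 genes called between 10 and 0 days became 6862 to 7052 when 1 library was left out. The 5513 genes of 10 against 30 days became 4768 to 5453, the 7120 of 10 against 60 days 6570 to 7105, and the 2699 apart at 10 days 2279 to 2662. DESeq2 called 7488 between 10 and 0 days, library totals 9348, and the other settings 7235 to 7430. None moved a count of both directions together by over 1.5 times. By direction library totals moved the counts further, from 3881 higher and 3423 lower to 8166 higher and 1182 lower. Library totals and TMM both called 5063 genes in the same direction, and a further 788 genes in opposite directions. The replicate block, by the number at the end of each column name, called 7244 genes and changed no call of a gene named here. The labels tie these numbers to no shared animal. By deviations from the group mean, 1 of 4 control libraries matched best the 10-day library of its own number.

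With library totals the named genes that turned were Pax7 (0.49), Pvalb (0.18), Lpl (0.067), Aars (0.38), S100a9 (0.32), Ccnd1 (0.55), Psmb6 (0.20), Sars (0.26), Cox6a1 (0.40), Cox8a (0.54), Cidec (0.25) and Adipoq (0.18). With 1 library left out Cidec ranged from -0.79 to 0.015, above 0 without replicate 3 of 0 days. List medians turned for synapse organizers (0.61, and from -0.14 to 0.090 with 1 library left out, above 0 without replicate 2 of 0 days), lipid storage (0.068), cholesterol (0.66), heat shock proteins (0.55), the clock (0.22) and Schwann cells (0.48). With 1 library left out the Schwann cell median ranged from -0.36 to 0.055, above 0 without replicate 2 of 0 days. Those of cholesterol (-0.034 to 0.031), fatty acid synthesis (-0.021 to 0.19) and the stress response (-0.061 to 0.13) fell on both sides of 0. Without the 10 most abundant genes the share of fragments turned for creatine and oxygen handling (1.51-fold) and the clock (0.960-fold). Permutation tests lost their call for lipid storage (1.10-fold), cholesterol (1.04-fold) and intermediate filaments (1.03-fold), and gained one for ion channels (0.775-fold) and sarcomere-associated proteins (0.843-fold). The cause of these turns was not tested. Genes with fewer than 20 fragments in the controls have fold changes that depth limits.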

Other observations

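Within lists that moved both ways, further genes rose by large amounts. Krt8, the keratin that pairs with Krt18, stood at 0.281, 0.3301, 0.402 and 0.671 CPM in the controls and 7.89, 40.8, 13.6 and 16.5 CPM at 10 days (log2 5.53 ± 0.55 SE, adjusted p 4.15e-07), or 4.90 without replicate 2 of 10 days. Slc7a5, a carrier of large neutral amino acids, rose from 1.29, 1.43, 1.03 and 1.01 CPM to 8.502, 11.2, 8.798 and 10.1 CPM (log2 3.01 ± 0.24 SE, adjusted p 1.74e-08), and Slc7a11, the cystine carrier, from between 0.0734 and 0.192 CPM to between 0.6899 and 1.29 CPM (log2 2.88 ± 0.68 SE, adjusted p 0.00145). Aldh1l2 and Mthfd2, enzymes of mitochondrial folate metabolism, rose as well (2.20 and 1.32). Txn1, thioredoxin, rose from between 42.6 and 51.04 CPM to between 121 and 167 CPM (log2 1.65 ± 0.10 SE, adjusted p 1.08e-09). The mitochondrial thioredoxin Txn2 fell (log2 -1.04 ± 0.10 SE, adjusted p 1.77e-07). These values are given with no test of their relation to one another.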
